A study of Mus musculus with 9 samples.

Results

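The amyloid precursor protein family and the secretases that cleave it were followed in hippocampal neuronal nuclei through 9 genes: the precursors App, Aplp1 and Aplp2, the β-secretase Bace1, the γ-secretase subunits Psen2, Ncstn, Aph1a and Psenen, and the α-secretase Adam10. They were chosen by name from the 48709 genes in the count files, and all 9 were among the 17361 genes that passed the filter on low counts and were tested. Between 65 reads (Aph1a) and 31065 reads (Aplp1) were counted per gene and library.

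The libraries came from C57BL/6J mice in 3 groups of 3. WT vehicle mice carried no transgene, and Tg4-42 vehicle and Tg4-42 caffeine mice carried a transgene that overexpresses human Aβ4-42. All mice were 6 months old, and the caffeine group had drunk water with 300 mg/l caffeine for 4 months from the age of 2 months, while the vehicle groups drank plain water. Nuclei of frozen hippocampi were stained for NeuN, a neuronal nuclear protein, and sorted, so the counts are of nuclear RNA of neurons. In Tg4-42 mice the murine Thy1 promoter drives the Aβ4-42 peptide behind the signal peptide of murine thyrotropin-releasing hormone, the mice are homozygous, and no full-length human precursor is made, although the genotype label reads APP Transgenic. The labels name a treatment for the caffeine group and none for the other groups, and they state that nuclei were isolated from 6 mice of each group, where the methods give 3 for sequencing. The p-values measure the spread between these libraries.

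The libraries held 9342945 to 16376922 counts on genes. Levels are given as CPM, the counts divided by the TMM-scaled library total and set to a common size. At these depths 3 counts equal 0.190 to 0.325 CPM, and this floor holds for counting error alone. In each group, lane 6 carried replicates 1 and 2 and lane 7 carried replicate 3. Neuronal markers were detected in all libraries, with a summed level of 5647 to 8321 CPM over 6 genes. The summed levels were 253 to 508 CPM for 6 oligodendrocyte genes, 276 to 415 CPM for 6 astrocyte genes and 37.7 to 70.3 CPM for 6 microglial genes, and 4 endothelial genes summed to 1.29 CPM or less. The 2 genes whose sequence is part of the transgene followed the genotype labels. Trh lay between 1.81 and 4.39 CPM in WT vehicle, between 51.3 and 64.7 CPM in Tg4-42 vehicle and between 48.0 and 59.7 CPM in Tg4-42 caffeine. Thy1 lay between 82.1 and 88.8 CPM in WT vehicle and between 461 and 670 CPM in the Tg4-42 libraries.

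APP is a membrane protein of neurons that is cut in alternative ways. The α-secretase ADAM10 cuts within the Aβ stretch, whereas the β-secretase BACE1 cuts at its start, after which the γ-secretase complex cuts inside the membrane and releases Aβ. The complex consists of a presenilin, which holds the active site, together with nicastrin, APH1 and PEN-2, and the same secretases also cut APLP1, APLP2 and many other neuronal membrane proteins.

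The Aβ stretch is shown because the transgene encodes a human copy of it while the counted gene is the endogenous mouse App. In the mouse transcript App-201 (GENCODE M21, GRCm38) it covers residues 597 to 638 of 695 and lies in coding sequence of exons 14 and 15 of 16, at chr16:84965670-84965720 and chr16:84962794-84962868 on the minus strand. The 126 bases run from 5′ to 3′, and the capitals mark the codons of residues 4 to 42 of Aβ, the part that the transgene carries in its human form.
App Aβ stretch: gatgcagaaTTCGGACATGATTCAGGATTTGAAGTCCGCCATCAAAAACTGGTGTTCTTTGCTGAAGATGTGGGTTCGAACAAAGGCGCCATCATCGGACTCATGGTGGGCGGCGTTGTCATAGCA

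Aplp2 and Aplp1, the precursors with the larger and the smaller difference between caffeine and vehicle below, are shown by the 250 bases before their RefSeq starts (GRCm38.p6). The Aplp2 window is chr9:31211849-31212098 and the Aplp1 window is chr7:30445583-30445832, both on the minus strand and free of annotated exons. Capitals mark the GC box, GGGCGG or its reverse complement CCGCCC.
Aplp2: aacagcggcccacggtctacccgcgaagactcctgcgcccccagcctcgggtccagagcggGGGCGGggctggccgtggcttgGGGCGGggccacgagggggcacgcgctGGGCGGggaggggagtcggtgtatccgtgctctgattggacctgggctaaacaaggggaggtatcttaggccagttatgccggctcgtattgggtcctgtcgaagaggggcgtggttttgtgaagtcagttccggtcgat
Aplp1: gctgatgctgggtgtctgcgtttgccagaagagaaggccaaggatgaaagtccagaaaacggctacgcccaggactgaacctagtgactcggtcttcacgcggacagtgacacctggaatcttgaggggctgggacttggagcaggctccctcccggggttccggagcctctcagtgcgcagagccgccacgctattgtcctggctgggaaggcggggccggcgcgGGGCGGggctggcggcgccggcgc
The Aplp2 window held 3 GC boxes and 66.4% G and C, and the Aplp1 window held 1 box and 66.0% G and C. Of the other genes, Adam10 had 3 boxes, Psen2 2 and 0 in its windows, and App and Aph1a 1 each. The windows of Ncstn and Psenen held 0. A relation of the boxes to the differences between caffeine and vehicle was not tested. RefSeq starts were given for 8 of the 9 genes, with 10 windows in all. A GC box was found in 6 of these 10 windows and in 32.7% of all 32851 windows of the same length. The letters TATAAA, read on the gene's strand, were in 0 of the 10 windows and in 7.59% of all windows. The matches describe the letters only.

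Per kilobase of exon, the genes spanned a wide range of levels. Averaged over the 9 libraries, Aplp1 had the highest level at 502 ± 94.1 CPM per kilobase (SD, n = 9), followed by Aplp2 at 137 ± 27.9 and App at 83.4 ± 11.1. Ncstn followed at 39.3 ± 6.70, Bace1 at 30.3 ± 3.07 and Adam10 at 19.999 ± 2.69 CPM per kilobase. The remaining γ-secretase subunits were lower, with Psen2 at 9.04 ± 1.17, Psenen at 7.71 ± 0.714 and Aph1a at 2.04 ± 0.337 CPM per kilobase. The median of the tested genes was 4.93 CPM per kilobase, so that Aph1a was the only one of the 9 genes below it. The ranges over libraries of Aplp2 and App overlapped, as did those of Ncstn and Bace1 and those of Psen2 and Psenen, and all other neighbours in this order were apart. With the length of the longest transcript in place of all exons, Psen2 moved to 19.4 ± 2.52 and Psenen to 13.9 CPM per kilobase, and the order of the 9 means remained. Adam10 was then at 21.4 ± 2.88 CPM per kilobase, so its distance from Psen2 depends on the length. The place of App below Aplp2 depends on the length, which was 12996 exon bases for App and 5875 for Aplp2. Without division by length App was higher in each group, with means of 937 to 1177 CPM beside 634 to 905 CPM. The transcripts in use were not tested. No test was made between genes.

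**Figure D1:**
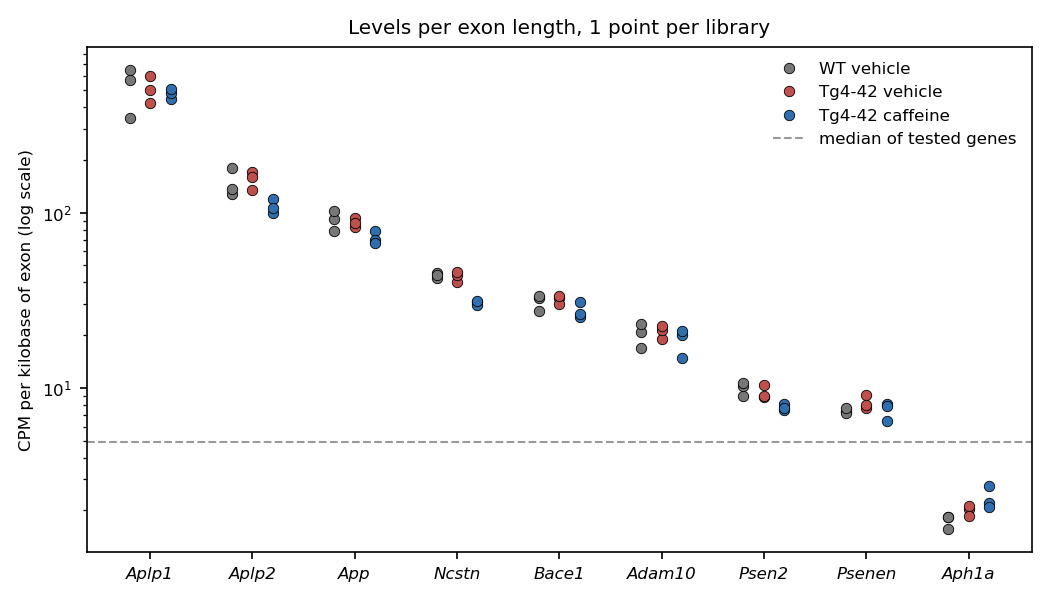
Levels of the 9 genes in CPM per kilobase of exon (y axis, log scale), with 1 point per library and the groups in colour. The precursors stand highest, from 67.4 CPM per kilobase of App upwards, and Aph1a lies below the dashed median of the tested genes in every library.

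Within the precursor family, Aplp1 made up 62.6% to 74.6% of the summed level per kilobase over the 9 libraries, Aplp2 15.2% to 23.1% and App 9.88% to 14.3%. The size of these shares depends on the lengths, which were 3017 exon bases for Aplp1, 5875 for Aplp2 and 12996 for App. The Aplp2 share was 18.5%, 15.2% and 15.5% in the Tg4-42 caffeine libraries and 21.1%, 19.7% and 21.2% in the Tg4-42 vehicle libraries, without overlap. In WT vehicle it was 23.1%, 15.4% and 21.2%, a range that includes the caffeine libraries. The ratio of Bace1 to Adam10 per kilobase, the β- to the α-secretase, was 1.54 ± 0.0940 in WT vehicle, 1.54 ± 0.16 in Tg4-42 vehicle and 1.51 ± 0.290 in Tg4-42 caffeine (SD, n = 3), and the 3 groups overlapped.

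The comparison of Tg4-42 vehicle with WT vehicle asked how these genes differ between transgenic and wild-type mice without caffeine. The transgenic line was kept homozygous, so the transgene cannot be told apart from other differences between the lines. None of the 9 was called different. By edgeR's quasi-likelihood test, 0 had an adjusted p under 0.05 and 0 an unadjusted p under 0.05, against 17 (0.0979%) and 475 (2.74%) of all tested genes, and DESeq2 also called 0. The log2 fold changes lay between -0.08 (Psen2) and 0.20 (Aph1a) with a median of 0.05, where the median of all tested genes was 0.00. The lowest end of the 9 intervals (95%) was -0.46 for Aplp1 and the highest 0.64 for Aph1a, whereas the interval of Ncstn was -0.25 to 0.21. Aph1a was the only gene whose groups did not overlap, which was the case for 6.73% of all tested genes.

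App was 1020.4, 1186 and 1323 CPM in WT vehicle and 1074, 1202 and 1139 CPM in Tg4-42 vehicle. The Tg4-42 vehicle libraries lay within the WT range, with a log2 fold change of -0.05 (95% interval -0.33 to 0.24, adjusted p = 1.00). Reads from the human Aβ stretch of the transgene and from mouse App cannot be told apart in these counts, and App was not higher in the libraries with high Trh and Thy1.

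The comparison of Tg4-42 caffeine with Tg4-42 vehicle asked how the long caffeine intake bears on these genes in the transgenic mice. Transcripts of the nicastrin gene Ncstn were lower in the caffeine group by 29.3% (95% interval 17.0% to 39.7%), and this was the only call among the 9 genes. Of the others, 7 had negative and 1 positive log2 fold changes, none past the threshold. The median log2 fold change of the 9 genes was -0.22, beside -0.01 for all tested genes, of which 51.5% were lower. Among all tested genes 153 (0.881%) were called, 116 of them (0.668%) lower, and 24.2% of the calls were higher, or 35.5% after correction for GC content. An unadjusted p under 0.05 with lower levels was found for 3 of the 9 genes (Ncstn, Aplp2, Psen2) and for 9.82% of all tested genes. In bulk nuclei, fewer cells of a type and less RNA per cell cannot be told apart.

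**Figure D2:**
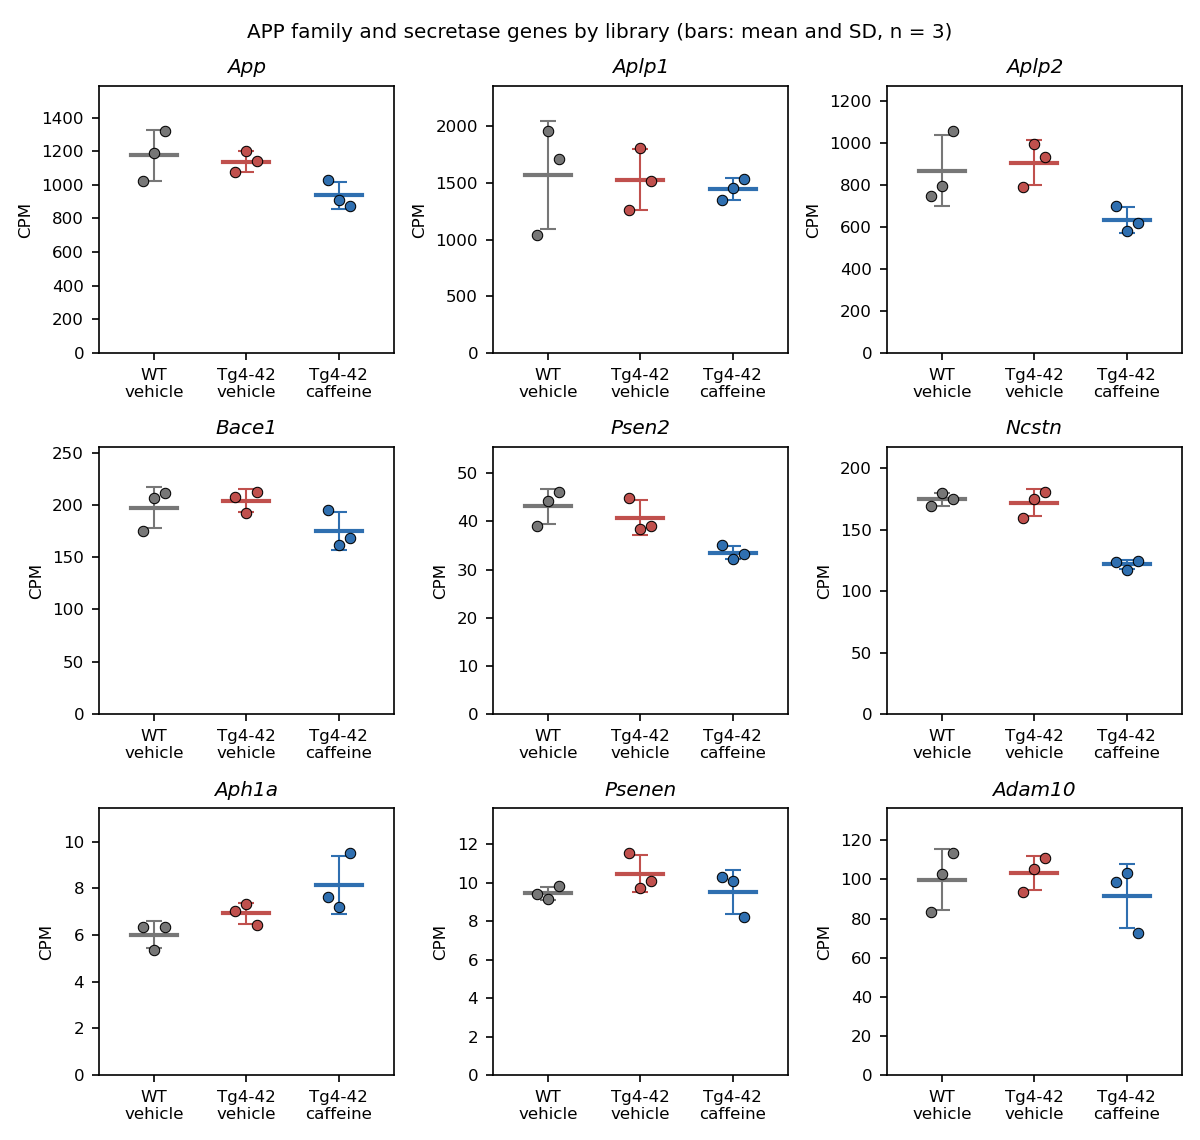
CPM of each of the 9 genes by group (y axes from 0), with points for libraries and bars for the mean and SD of 3. The 3 Tg4-42 caffeine libraries lie below all 3 Tg4-42 vehicle libraries for App, Aplp2, Psen2 and Ncstn, and the groups overlap for the other 5 genes.

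Ncstn (1:172066013-172082795, minus strand, GRCm38) encodes the glycoprotein subunit of γ-secretase that receives substrates. It was 169, 180.2 and 175 CPM in WT vehicle, 159.8, 175 and 181 CPM in Tg4-42 vehicle, and 123, 117 and 125 CPM in Tg4-42 caffeine. The vehicle groups overlapped, and every caffeine library was below all 6 vehicle libraries, as also for Aplp2 and Psen2. Caffeine libraries all below Tg4-42 vehicle were found for 12.6% of all tested genes, and all below WT vehicle for 9.67%. The share below both groups was not counted. Between caffeine and vehicle in Tg4-42 mice the log2 fold change was -0.50 (SE 0.11, 95% interval -0.73 to -0.27, edgeR adjusted p = 0.0469), and Ncstn ranked 117th by p among the tested genes. An exact two-sided permutation test of 3 libraries against 3 cannot give a p under 0.1, and gave p = 0.1. On lane 6 the log2 ratio of the group means was -0.48 (2 libraries per group) and on lane 7 it was -0.54 (1 per group).

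The Ncstn call was close to the threshold. The adjusted p was 0.0430 without WT vehicle replicate 1, and 0.0525 to 0.278 in the other 8 fits that each left out 1 library: WT vehicle replicates 2 and 3, all 3 of Tg4-42 vehicle and all 3 of Tg4-42 caffeine. The log2 fold change stayed between -0.55 and -0.45. A replicate block gave an adjusted p of 0.0515, and the lane as a covariate gave 0.0689. Of the exon bases of Ncstn, 4.91% are shared with Copa, a coat protein gene on the opposite strand, and the library kit does not mark strand. Copa was 237 ± 5.38 CPM in Tg4-42 caffeine and 265 ± 4.96 CPM in Tg4-42 vehicle (SD, n = 3), a log2 fold change of -0.16 (edgeR adjusted p = 0.496), and these Copa groups did not overlap. The part of Copa reads in the Ncstn counts was not tested.

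Psen2 (1:180227004-180263438, minus strand) encodes presenilin 2, a catalytic subunit of the complex. It was 39.1, 44.2 and 46.2 CPM in WT vehicle, 44.9, 38.4 and 39.0 CPM in Tg4-42 vehicle, and 35.1, 32.3 and 33.3 CPM in Tg4-42 caffeine. The caffeine libraries lay below those of both vehicle groups. Against Tg4-42 vehicle, the log2 fold change of -0.28 (SE 0.13, 95% interval -0.55 to -0.01) did not pass the test (edgeR adjusted p = 0.280). Within Tg4-42 caffeine the ratio of Ncstn to Psen2 per kilobase was 3.96 ± 0.123, beside 4.64 ± 0.659 in Tg4-42 vehicle and 4.43 ± 0.294 in WT vehicle (SD, n = 3). The caffeine libraries, at 3.84 to 4.08, overlapped those of Tg4-42 vehicle and lay below the 4.13 to 4.72 of WT vehicle.

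Aph1a (3:95893969-95898288, plus strand), a scaffold subunit, had the 1 positive difference. It was 6.35, 5.37 and 6.34 CPM in WT vehicle, 7.03, 7.32 and 6.42 CPM in Tg4-42 vehicle, and 7.65, 7.19 and 9.53 CPM in Tg4-42 caffeine. The Tg4-42 groups overlapped, with a log2 fold change of 0.23 (95% interval -0.21 to 0.66, edgeR adjusted p = 0.617). It rests on 65 to 124 reads per library, and 12.9% of its exon bases are shared with Car14. Car14 was 1.28 ± 0.492 CPM in WT vehicle, 2.33 ± 0.896 in Tg4-42 vehicle and 1.02 ± 0.140 in Tg4-42 caffeine (SD, n = 3). Its log2 fold change was -1.21 for caffeine against Tg4-42 vehicle (edgeR adjusted p = 0.149) and 0.87 between the vehicle groups, neither called. The part of Car14 reads in the Aph1a counts was not tested. Psenen (7:30561863-30563627, minus strand), which encodes PEN-2, was 9.41, 9.16 and 9.83 CPM in WT vehicle, 11.6, 9.75 and 10.1 CPM in Tg4-42 vehicle, and 10.3, 10.1 and 8.23 CPM in Tg4-42 caffeine. Its log2 fold change was -0.13 (95% interval -0.52 to 0.26, edgeR adjusted p = 0.766), and its groups overlapped. Of the exon bases of Psenen, 9.33% are shared with U2af1l4 and Gm49396.

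Among the precursors, Aplp2 (9:31149557-31211815, minus strand), a widely expressed relative of APP that lacks the Aβ stretch, differed most. It was 746, 796 and 1058 CPM in WT vehicle, 789, 995 and 932 CPM in Tg4-42 vehicle, and 701, 581 and 620.2 CPM in Tg4-42 caffeine. All caffeine libraries were below all 6 vehicle libraries, as for Ncstn and Psen2. Caffeine against vehicle, the log2 fold change of -0.51 (SE 0.15, 95% interval -0.84 to -0.19) did not pass the edgeR test over all genes (adjusted p = 0.109). Of 9 other settings it passed in 2, DESeq2 (adjusted p = 0.0309) and no filter on low counts (adjusted p = 0.0190). With no filter, 987 of the 30820 genes with at least 1 count were called. In the 9 fits that each left out 1 library, Aplp2 passed in 0 (edgeR adjusted p = 0.0836 to 0.433). By DESeq2 2 of the 9 genes, Ncstn and Aplp2, were called lower, beside 3.17% of its tested genes. The log2 ratio of the Aplp2 group means was -0.48 on lane 6 and -0.59 on lane 7.

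App (16:84949685-85173766, minus strand) was 1074, 1202 and 1139 CPM in Tg4-42 vehicle and 1026, 909.9 and 876 CPM in Tg4-42 caffeine. The groups did not overlap, and the log2 fold change of -0.28 (SE 0.13, 95% interval -0.56 to 0.003) did not pass the test (edgeR unadjusted p = 0.0525, adjusted p = 0.303). The caffeine libraries lay below the vehicle libraries for 4 of the 9 genes (App, Aplp2, Psen2 and Ncstn) and for 12.6% of all tested genes.

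Aplp1 (7:30434982-30445535, minus strand), the neuronal relative of APP, was 1039, 1962 and 1709.5 CPM in WT vehicle, 1265, 1809 and 1514 CPM in Tg4-42 vehicle, and 1347, 1457 and 1537 CPM in Tg4-42 caffeine. Its groups overlapped, and the log2 fold change of caffeine against vehicle was -0.08 (95% interval -0.50 to 0.34, edgeR adjusted p = 0.872). The spread within WT vehicle, a coefficient of variation of 30.4%, was the largest among the 9 genes in any group. In both vehicle groups the order of the Aplp1 levels was that of the library totals. In Tg4-42 caffeine it was not, as replicate 3 had the lowest total of the group (12498081 counts) and the highest Aplp1 level. The longest Aplp1 transcript had the highest GC content of the 9 genes at 59.4%. The part of depth and base composition in this spread was not tested.

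The β- and α-secretase genes did not pass the test. Bace1 (9:45838580-45864399, plus strand) was 175, 206 and 211 CPM in WT vehicle, 208, 192 and 213 CPM in Tg4-42 vehicle, and 195, 162 and 168 CPM in Tg4-42 caffeine, and 1 caffeine library overlapped the Tg4-42 vehicle range. The log2 fold change was -0.22 (95% interval -0.48 to 0.04, edgeR adjusted p = 0.380). Exons of Rnf214 and of the predicted genes Gm49338 and Gm16536 cover 32.5% of the exon bases of Bace1, and Rnf214 had a log2 fold change of -0.18 (edgeR adjusted p = 0.471). Adam10 (9:70678997-70780229, plus strand) was 83.3, 103 and 114 CPM in WT vehicle, 93.6, 105 and 111 CPM in Tg4-42 vehicle, and 98.7, 103 and 72.6 CPM in Tg4-42 caffeine. Only replicate 3 of the caffeine group was below the Tg4-42 vehicle range, and the log2 fold change was -0.17 (95% interval -0.49 to 0.14, edgeR adjusted p = 0.598). The log2 ratio of the Adam10 group means was 0.02 on lane 6 and -0.61 on lane 7.

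**Figure D3:**
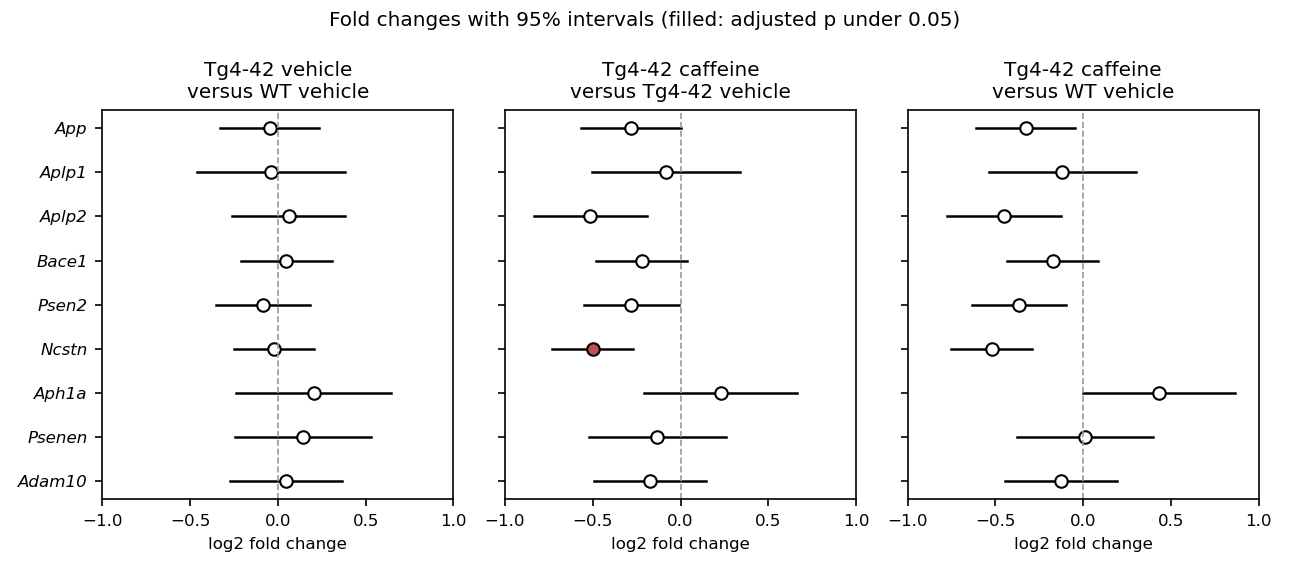
Log2 fold changes of the 9 genes (x axes) in the 3 comparisons, with points for the edgeR estimate and lines for the 95% interval. The filled point is the 1 call, Ncstn between Tg4-42 caffeine and Tg4-42 vehicle, and all intervals of Tg4-42 vehicle versus WT vehicle include 0.

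Tg4-42 caffeine was also set against WT vehicle, a comparison that shares its libraries with the other comparisons. None of the 9 genes was called by edgeR, where 72 of all tested genes (0.415%) were, 47 of them (0.271%) lower. An unadjusted p under 0.05 was found for 4 of the 9, all lower (App, Aplp2, Psen2 and Ncstn), and for 8.65% of all tested genes in that direction. Ncstn had a log2 fold change of -0.52 (SE 0.11, 95% interval -0.75 to -0.29) and an adjusted p of 0.0503, and DESeq2 called it and no other of the 9 genes (adjusted p = 0.000215), beside 2.48% of its tested genes called lower. Aplp2 differed by -0.45 (95% interval -0.77 to -0.13, adjusted p = 0.172), Psen2 by -0.36 (-0.63 to -0.10, adjusted p = 0.180) and App by -0.33 (-0.61 to -0.04, adjusted p = 0.258) on the log2 scale. The caffeine libraries were all below the WT libraries for Ncstn, Aplp2 and Psen2, which held for 9.67% of all tested genes. Aph1a, which rests on 65 to 124 reads per library, had a log2 fold change of 0.43 (95% interval -0.003 to 0.87, adjusted p = 0.327). Aplp1, Bace1, Psenen and Adam10 overlapped between these groups, with log2 fold changes from -0.17 to 0.01.

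The other genes of the pathway were described through 7 lists with 85 tested genes. Between Tg4-42 caffeine and Tg4-42 vehicle 56 of them were lower and 29 higher, with a median log2 fold change of -0.11, and 2 (2.35%) were called by edgeR, both lower, beside 0.881% of all tested genes called. An unadjusted p under 0.05 was found for 22 of them (25.9%) and for 17% of all tested genes. Between Tg4-42 vehicle and WT vehicle 37 were lower and 48 higher, with 0 called, and 1 of the 85 (1.18%) had an unadjusted p under 0.05, beside 2.74% of all tested genes. Between Tg4-42 caffeine and WT vehicle 52 were lower and 33 higher, again with 0 called, and 17 (20%) had an unadjusted p under 0.05, beside 15.4% of all tested genes. The values that follow are for caffeine against vehicle in Tg4-42 mice.

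The 5 tested genes listed for other secretases all had negative log2 fold changes, with a median of -0.38, and 0 were called. Adam9, a membrane protease with α-secretase activity, was 51.5 ± 2.06 CPM with caffeine and 68.5 ± 6.80 CPM with vehicle (SD, n = 3), a log2 fold change of -0.41 (edgeR adjusted p = 0.147). The further APH1 genes Aph1b and Aph1c differed by -0.36 and -0.38 (adjusted p = 0.219 and 0.263). Aph1b and Aph1c are close relatives, and how their shared reads were counted makes both values uncertain.

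The called genes were both in the list of other substrates of ADAM10 and γ-secretase, in which 11 of 16 genes were lower and 5 higher, with a median log2 fold change of -0.26. Dner, a neuronal Notch ligand, was 118 ± 8.80 CPM with caffeine and 179 ± 17.3 CPM with vehicle, a log2 fold change of -0.60 (95% interval -0.86 to -0.35, edgeR adjusted p = 0.0399). Cdh2, which encodes N-cadherin, was 70.5 ± 3.28 and 104.9 ± 6.62 CPM, a log2 fold change of -0.57 (95% interval -0.82 to -0.32, edgeR adjusted p = 0.0399). The call of Dner held in 3 and that of Cdh2 in 4 of the 9 fits that each left out 1 library. Both were lost without WT vehicle replicate 2, Tg4-42 vehicle replicate 1 or 3, or Tg4-42 caffeine replicate 2 or 3, and Dner also without Tg4-42 vehicle replicate 2, with adjusted p up to 0.278. Both were also lost with the lane as a covariate (adjusted p = 0.0633 for Dner and 0.0656 for Cdh2). The synaptic adhesion gene Nlgn1 differed by -0.47 (adjusted p = 0.0955) and the neuregulin receptor gene Erbb4 by -0.46 (adjusted p = 0.155).

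Among other substrates of BACE1, 12 of 14 genes were lower and 2 higher, with a median log2 fold change of -0.18 and 0 calls. L1cam, a neural adhesion molecule, differed by -0.49 (edgeR adjusted p = 0.106), the seizure-related gene Sez6 by -0.36 (adjusted p = 0.147) and Nrg1, a ligand of ERBB receptors, by -0.57 (adjusted p = 0.165). The Notch ligand gene Jag1 had a positive difference of 0.77 (adjusted p = 0.210).

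The lists of proteins that bind, sort and modify APP and its secretases had 0 calls. Of 11 APP adaptors 7 were higher and 4 lower, with a median log2 fold change of 0.16. Numbl, an endocytic adaptor, differed by 0.37 (edgeR adjusted p = 0.240), Apbb1, which encodes the adaptor FE65, by -0.30 (adjusted p = 0.333), Dab1, the adaptor of reelin receptors, by 0.25 (adjusted p = 0.341) and Clstn1, a calsyntenin, by -0.27 (adjusted p = 0.393). Of 20 genes for sorting and endocytosis 10 were higher and 10 lower, with a median of 0.00. The retromer gene Vps35 differed by -0.46 (adjusted p = 0.137), the sorting receptor genes Sorcs3 and Sorcs1 by -0.36 and -0.66 (adjusted p = 0.142 and 0.202), and the reelin receptor gene Lrp8 by 0.33 (adjusted p = 0.189).

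Of 10 modifiers of γ-secretase and BACE1 9 were lower and 1 higher, with a median log2 fold change of -0.14. Tmed10, a cargo receptor that associates with the presenilin complex, differed by -0.36 (edgeR adjusted p = 0.128), the reticulon genes Rtn3 and Rtn4 by -0.27 and -0.24 (adjusted p = 0.392 and 0.472) and Itm2c by -0.25 (adjusted p = 0.540). Of 9 partners and activating proteases of ADAM10 5 were lower and 4 higher, with a median of -0.04. Timp3, an inhibitor of metalloproteases, differed by -0.66 (adjusted p = 0.0884), the scaffold gene Dlg1 by -0.30 (adjusted p = 0.367), and the tetraspanin genes Tspan14 and Tspan33 by -0.32 and 0.31 (adjusted p = 0.381 and 0.388).

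**Figure D4:**
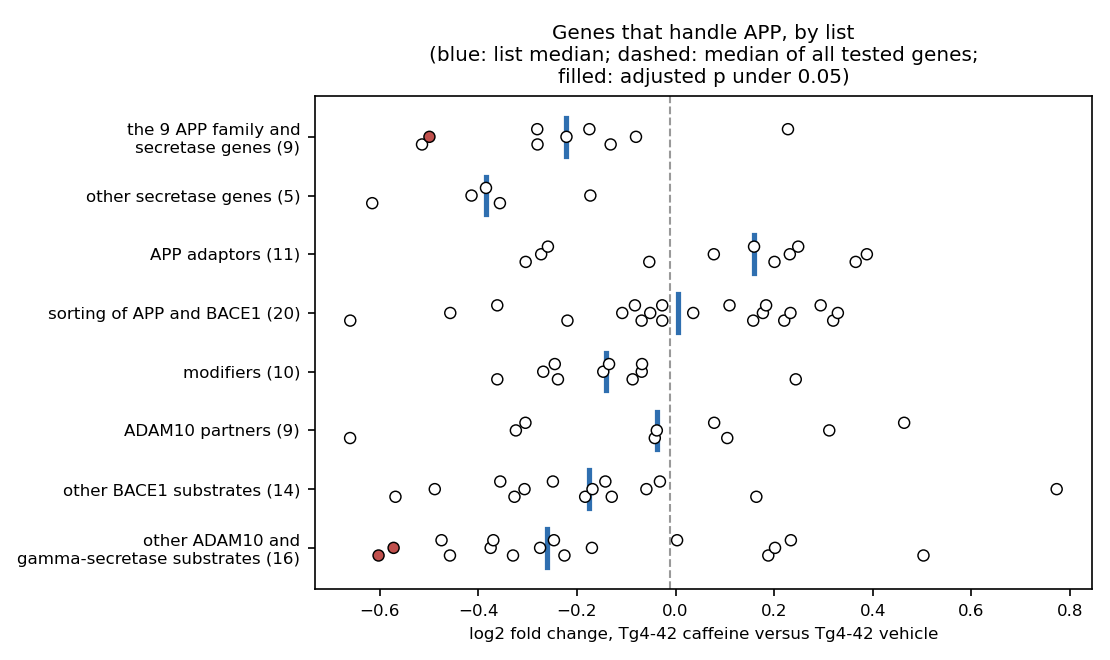
Log2 fold changes between Tg4-42 caffeine and Tg4-42 vehicle (x axis) of the 9 genes and of 7 pathway lists, with 1 point per gene, a blue line at the median of each list and filled points for calls. The list medians lie between -0.38 for other secretases and 0.16 for APP adaptors, and the filled points are Ncstn, Dner and Cdh2.

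Markers of cell types differed in direction between the caffeine and vehicle libraries of Tg4-42 mice. Of 8 markers of dentate granule cells 7 were higher and 1 lower, with a median log2 fold change of 0.62, and Plk5 was called (log2 fold change 1.52, edgeR adjusted p = 0.0385). That call was lost without WT vehicle replicate 2, Tg4-42 vehicle replicate 1 or 3, or Tg4-42 caffeine replicate 2 or 3 (adjusted p up to 0.222), and with the lane as a covariate (adjusted p = 0.0575). The summed level of the dentate markers was 1285 to 1519.5 CPM with caffeine and 743 to 1207 CPM with vehicle, without overlap. Of 6 CA1 markers 5 were lower (median -0.48, summed level 381 to 569 CPM with caffeine and 561 to 673 CPM with vehicle), and of 6 CA3 markers 5 were higher (median 0.28, summed level 185 to 256 and 155 to 249.8 CPM). None of these was called.

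Glial markers had negative differences, with 6 of 6 for oligodendrocytes (median -0.69, summed level 253 to 362 CPM with caffeine and 362 to 508 CPM with vehicle), 5 of 6 for astrocytes (median -0.76, 276 to 349 and 296 to 415 CPM) and 6 of 6 for microglia (median -0.56, 37.7 to 46.5 and 46.8 to 70.3 CPM), and 0 were called. Of 6 neuronal markers 5 were lower (median -0.31), with a summed level of 5647 to 6741 CPM with caffeine and 6651 to 8321 CPM with vehicle. In no marker list was a gene at 0 over a whole group, and the 4 endothelial genes each had a mean under 1 CPM. The part of the cell types in the differences of Ncstn, Aplp2, Psen2 and App was not tested.

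The profile of App over the 9 libraries was set against those of all other tested genes, in log2 CPM centred on the mean of each gene. Nearest to App, with the 9 genes left out, were Elovl5, 2810468N07Rik, Slc35b4, Gatm and Trappc11, with root mean square differences of 0.04 to 0.05 on the log2 scale. The median over all tested genes was 0.30, and App itself varied with an SD of 0.18. Within the family and its secretases, Bace1 was nearest to App at 0.10, followed by Psen2 at 0.11, Aplp2 at 0.13 and Ncstn and Adam10 at 0.14. Psenen was at 0.19, Aplp1 at 0.24 and Aph1a at 0.36. Of the tested genes 0.53% were nearer to App than Bace1 was, 30.0% nearer than Aplp1 and 63.7% nearer than Aph1a. Aph1a rests on 65 to 124 reads per library, and the part of counting error in its distance was not tested. The points share the libraries and their scaling.

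**Figure D5:**
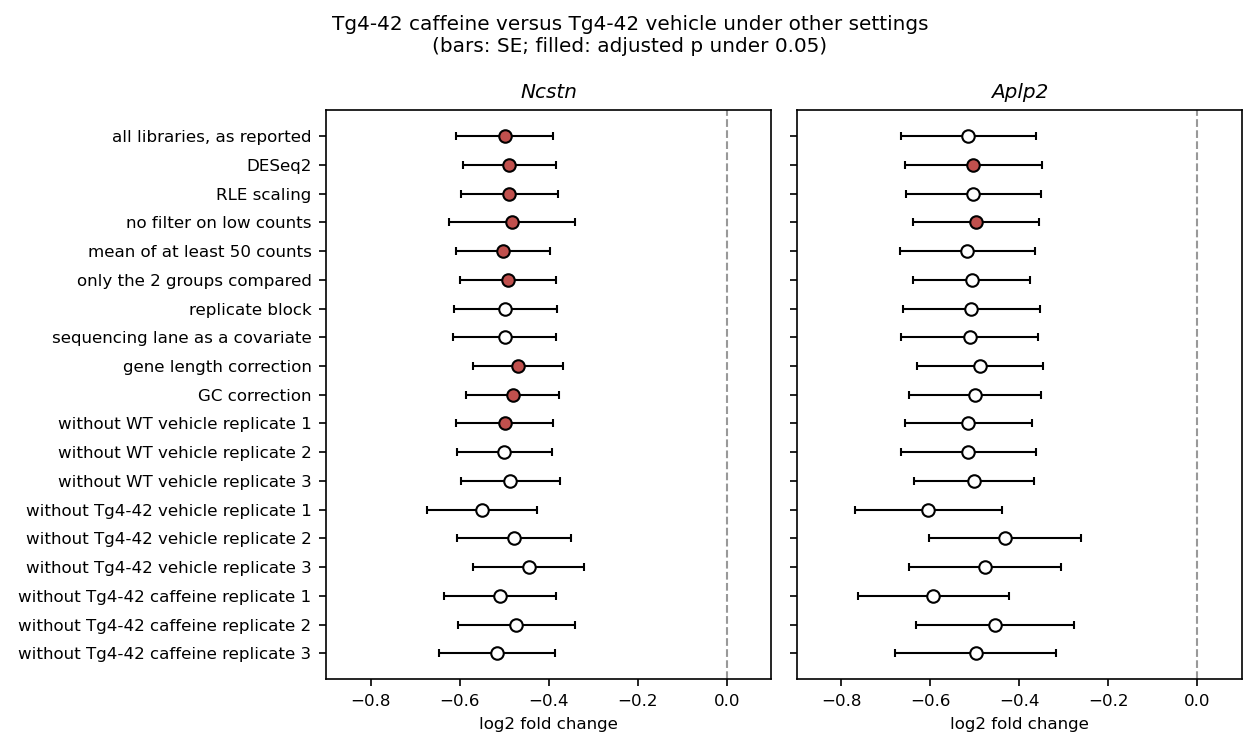
Log2 fold changes of Ncstn and Aplp2 between Tg4-42 caffeine and Tg4-42 vehicle (x axes) with all libraries, in 9 other settings and without each library in turn, with bars for the SE. All values are negative, between -0.55 and -0.45 for Ncstn and between -0.60 and -0.43 for Aplp2, and filled points mark an adjusted p under 0.05.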

How the data were processed

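RNA of NeuN-sorted hippocampal nuclei was sequenced as single-end reads of 50 bases after SMART-Seq v4 amplification and Nextera XT library preparation, which do not mark strand. The authors aligned the reads to mm10 (GRCm38) with STAR, counted them on exons with featureCounts and deposited whole-number counts per gene without normalization. The reads were not analysed here.

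Ensembl identifiers were matched to GENCODE M21 (48349 of 48709 genes), and sequences were taken from GENCODE transcripts and the RefSeq table of start sites. Bace1 has no entry in that table. Tests used edgeR 4.0.16 (R 4.3.3). Low counts were filtered by filterByExpr (minimum count 10, minimum total 15), libraries were scaled by TMM, and robust quasi-likelihood fits of all 9 libraries were tested by contrasts, with Benjamini-Hochberg adjustment over the 17361 tested genes and a threshold of 0.05. Intervals are 95%. Single genes were also compared by exact permutation of log2(CPM + 0.5), and profiles used log2 CPM with a prior count of 2. The code was tested on simulated data.

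The members and gene lists were chosen with earlier results of these data known. All 9 members are named. From each pathway list at most 4 genes are named, those with the smallest unadjusted p between caffeine and vehicle, and the profile comparison names the 5 genes nearest to App. Other genes (Trh, Thy1, Copa, Rnf214, Car14, Plk5) do not come from this rule, and their values were known when they were picked. Apbb3, an APP adaptor, was not analysed here. A further gene of the pathway lists is not reported here. Alternatives were DESeq2 1.42.0, RLE scaling, no filter, a mean of at least 50 counts, only the 2 groups compared, a replicate block, the lane as a covariate, a length correction, and leaving out each library. A correction for the GC content of the longest transcript was chosen after seeing the data. Replicate numbers were given in accession order, so the main fit has no block.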

Additional observations from a re-analysis of the deposited data

How the results depend on the processing

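Precision is limited by 3 libraries per group, a common biological coefficient of variation of 0.163, and 65 to 152 reads per library for Aph1a and Psenen. Between Tg4-42 caffeine and Tg4-42 vehicle, where 1 of the 9 genes was called, the number was 2 with DESeq2 and with no filter, 0 with the replicate block or the lane as a covariate, and 0 to 1 when single libraries were left out. Between Tg4-42 caffeine and WT vehicle, where 0 were called, it was 1 (Ncstn) with DESeq2, no filter, a mean of at least 50 counts, the length correction or the GC correction, and 0 to 1 when single libraries were left out. The number was 0 under every alternative between Tg4-42 vehicle and WT vehicle. The replicate numbers are names without a stated pairing. The deviations of libraries with the same number correlated at 0.14 to 0.19 between Tg4-42 vehicle and WT vehicle, where 3 of 3 libraries correlated best with their own number, at -0.17 to 0.18 between Tg4-42 caffeine and Tg4-42 vehicle, where 1 of 3 did, and at -0.17 to 0.0075 between Tg4-42 caffeine and WT vehicle, where 0 of 3 did. The block moved the calls over all genes from 17 to 16 between the vehicle groups and from 153 to 187 and 72 to 82 in the caffeine comparisons, and it changed no call among the 9 genes other than Ncstn.

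Over all tested genes, the 153 calls between Tg4-42 caffeine and Tg4-42 vehicle became 740 with DESeq2, 987 with no filter, 9 with the lane, 262 with the GC correction and 0 to 341 without single libraries, with 0 without Tg4-42 vehicle replicate 3 or Tg4-42 caffeine replicate 3. The unadjusted p was under 0.05 for 1869 and 1641 genes in those fits. The 72 calls against WT vehicle became 540, 860, 42, 152 and 16 to 287, and the 17 calls between the vehicle groups became 74 with no filter. Fits without a library hold fewer samples by construction, and other causes were not tested.

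Differences near 0 changed sign when single libraries were left out. Between Tg4-42 vehicle and WT vehicle the log2 fold change ranged from -0.14 to 0.037 for App, -0.26 to 0.15 for Aplp1, -0.035 to 0.22 for Aplp2, -0.033 to 0.091 for Bace1, -0.069 to 0.029 for Ncstn and -0.069 to 0.14 for Adam10. It ranged from -0.20 to 0.066 for Aplp1 between Tg4-42 caffeine and Tg4-42 vehicle, and against WT vehicle from -0.34 to 0.074 for Aplp1, -0.047 to 0.11 for Psenen and -0.24 to 0.014 for Adam10. Psenen was also at -0.025 against WT vehicle with the length correction. With the longest transcript as the length, the levels moved to 613 CPM per kilobase for Aplp1, 221 for Aplp2, 133 for App, 51.8 for Ncstn, 19.4 for Psen2, 13.9 for Psenen and 2.45 for Aph1a. Unscaled library totals moved no level by more than its SD.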
